A study of Mus musculus with 48 samples.

Results

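The genes followed here are used as markers of oligodendrocyte precursors and the stages before myelination, and were read in the substantia nigra (SN) of mice. They are *Pdgfra*, *Cspg4*, *Vcan*, *Olig1*, *Olig2*, *Sox10*, *Gpr17*, *Bmp4*, *Enpp6* and *Bcas1*, 10 of the 19601 protein-coding genes of the batch-corrected table, picked by symbol as known markers. Male C57BL/6J mice received monomeric α-synuclein or α-synuclein preformed fibrils (PFF), which seed aggregates of the protein, in the right striatum, and breathed 21% or 11% O2. Each of the 4 groups had 12 mice, injected at 121 days of age and killed 90 to 98 days later. Every control mouse had the monomer injection, so none was uninjected. The study's methods give 12 weeks at 11% O2, whereas the deposited design text gives 6 weeks at 21% followed by 6 weeks at 11%. The corrected table holds 42 of the 48 mice: 11 monomer and 12 PFF mice at 21% O2, and 9 monomer and 10 PFF mice at 11% O2.

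Oligodendrocyte precursors are dividing cells that persist in the adult brain and give rise to the cells that make myelin. As they mature they pass through a committed and a premyelinating stage before they wrap axons, and these genes are switched on and off along that path. The lineage transcription factors Olig1, Olig2 and Sox10 are kept in mature oligodendrocytes, so their transcripts come from a wider set of cells than those of *Pdgfra* or *Gpr17*. Pericytes also make *Cspg4*, and fibroblasts of the meninges also make *Pdgfra*. The libraries came from pieces of tissue, in which fewer cells of a type and less RNA per cell cannot be told apart.

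Mice were harvested on dates that form 3 batches, and the groups were not spread evenly over them. Batch 1 held all 4 groups, batch 2 had no monomer mice at 11% O2, and batch 3 had no monomer mice at 21% O2. Gene counts before correction summed to 12902996 to 17120921 per library in the 42 mice. The 8 markers of dopaminergic neurons, the cells that define the dissected nucleus, summed to 1108 to 5376 TPM (a transcript level scaled by length and library), and none was at 0 throughout a group. Differences between groups are log2 fold changes from edgeR's quasi-likelihood test on the batch-corrected counts, fitted across 14839 genes. A gene was called where the p adjusted by the Benjamini–Hochberg method was below 0.05 and the log2 fold change exceeded 0.25 in size. All 10 genes passed the filter on low counts.

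*Bcas1* (ENSMUSG00000013523.13, chromosome 2 from 170346991 to 170427845 of GRCm38), which marks oligodendrocytes as they begin to myelinate, had the highest mean over the 42 mice, 515 TPM. *Olig1* (ENSMUSG00000046160.6, chromosome 16 from 91269772 to 91271933) followed with 484 TPM. The ranges of *Bcas1* and *Olig1* overlapped, and no other gene reached the lowest mouse of either. *Sox10* (ENSMUSG00000033006.10, chromosome 15 from 79154908 to 79165240), which drives myelin genes, had a mean of 190.1 TPM. *Olig2* (ENSMUSG00000039830.9, chromosome 16 from 91225457 to 91228677), the factor that specifies the lineage and a chromosomal neighbour of *Olig1*, had a mean of 109.8 TPM. *Gpr17* (ENSMUSG00000052229.5, chromosome 18 from 31942997 to 31949636), a receptor on committed precursors, had a mean of 54.0 TPM. *Pdgfra* (ENSMUSG00000029231.15, chromosome 5 from 75152292 to 75198215), the receptor for the growth signal that keeps precursors dividing, had a mean of 36.0 TPM. *Enpp6* (ENSMUSG00000038173.15, chromosome 8 from 46986887 to 47096762), an enzyme of newly formed oligodendrocytes, had a mean of 21.3 TPM.

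The lowest levels were those of the proteoglycans and of *Bmp4*. *Vcan* (ENSMUSG00000021614.16, chromosome 13 from 89655312 to 89742509) and *Cspg4* (ENSMUSG00000032911.6, chromosome 9 from 56865033 to 56899870), which encode versican and NG2, had means of 12.2 and 9.88 TPM, and their ranges overlapped. *Bmp4* (ENSMUSG00000021835.15, chromosome 14 from 46383520 to 46390669), a secreted signal that holds back the maturation of precursors, had a mean of 4.07 TPM. It rested on 7 to 112 counts per mouse before correction, whereas no other gene had fewer than 280 counts in any mouse. The coefficient of variation within groups reached 63.6% for *Bmp4* and at most 21.5% for the others, so small differences in *Bmp4* were the least detectable.

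**Figure D1:**
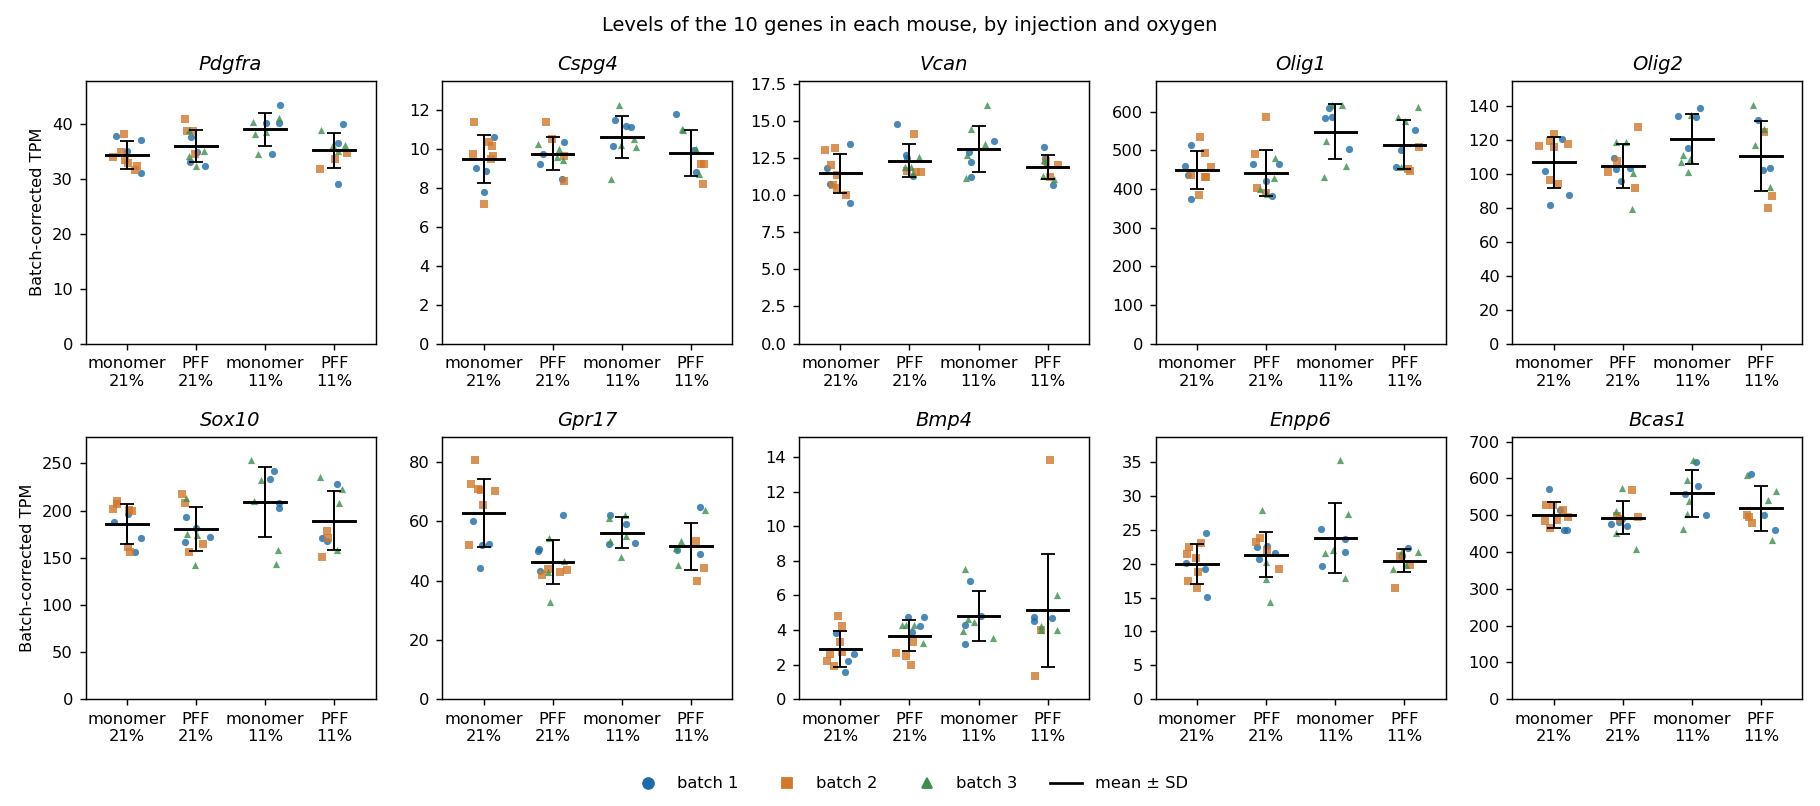
Batch-corrected TPM of each gene in the 42 mice, by injection and O2, with 1 point per mouse, colour and shape for the harvest batch, and the group mean ± SD in black. The ranges of the groups overlap for every gene, and 1 PFF mouse at 11% O2 lies far above the others for Bmp4, at 13.8 TPM.

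PFF and monomer mice at 21% O2 were compared to ask how the tissue responds to fibrils in normal air. *Gpr17* was the 1 gene of the 10 called, and it was lower with PFF. Its TPM ran from 44.1 through 65.7 to 80.6 in the 11 monomer mice, and from 32.7 through 43.7 to 62.0 in the 12 PFF mice. The ranges overlapped, all 12 PFF mice lay below the monomer median, and 7 of them lay below the lowest monomer mouse. The mean was 46.3 ± 7.34 TPM (SD, n = 12) with PFF and 62.9 ± 11.4 TPM (SD, n = 11) with monomer, and the log2 fold change was -0.43 (SE 0.0862, edgeR's adjusted p = 0.00143). The share called was 1 of 10 genes, against 3.7% of all genes tested.

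The other genes were not called. *Pdgfra* had a log2 fold change of 0.08 (SE 0.0474), *Vcan* of 0.12 (SE 0.0592, edgeR's adjusted p = 0.217) and *Enpp6* of 0.11 (SE 0.0905). The lineage factors had values of -0.01 for *Olig1*, -0.01 for *Olig2* and -0.03 for *Sox10*, each smaller in size than its SE. *Bmp4*, at 2.90 ± 1.02 TPM (SD, n = 11) with monomer and 3.68 ± 0.922 TPM (SD, n = 12) with PFF, had a log2 fold change of 0.35 (SE 0.231, edgeR's adjusted p = 0.374). Of the 10 genes, 5 were higher and 5 lower, with a median of 0.03 beside 0.000849 over all genes tested.

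The *Gpr17* difference was not alike in the batches. Before correction, the 7 monomer mice of batch 2 had 50.1 to 74.2 TPM and its 4 PFF mice 39.9 to 41.7 TPM, with no overlap. In batch 1 the 4 monomer mice had 33.6 to 49.3 TPM and the 4 PFF mice 35.5 to 52.5 TPM, which overlapped. The log2 fold change was -0.64 (SE 0.0845, edgeR's adjusted p = 0.000584) within batch 2 and 0.07 (SE 0.129, edgeR's adjusted p = 0.809) within batch 1. The difference between these effects was tested on the 19 mice concerned, a test chosen after the values were seen, and was -0.71 (SE 0.148, edgeR's adjusted p = 0.0345). *Gpr17* was the 1 gene of the 10 that passed this test, against 0.372% of all genes. *Bmp4* was also unlike in value, at 0.98 (SE 0.338, edgeR's adjusted p = 0.328) within batch 1 and -0.08 (SE 0.364, edgeR's adjusted p = 0.934) within batch 2. Its difference between batches, -1.05 (SE 0.375, edgeR's adjusted p = 0.208), was larger in size than that of *Gpr17*, with a larger SE, and did not pass. The 4 PFF mice of batch 3, with a *Gpr17* of 33.9 to 55.2 TPM, had no monomer mice at 21% O2 beside them. The part of the harvest batch in the fall of *Gpr17* was not tested further.

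**Figure D2:**
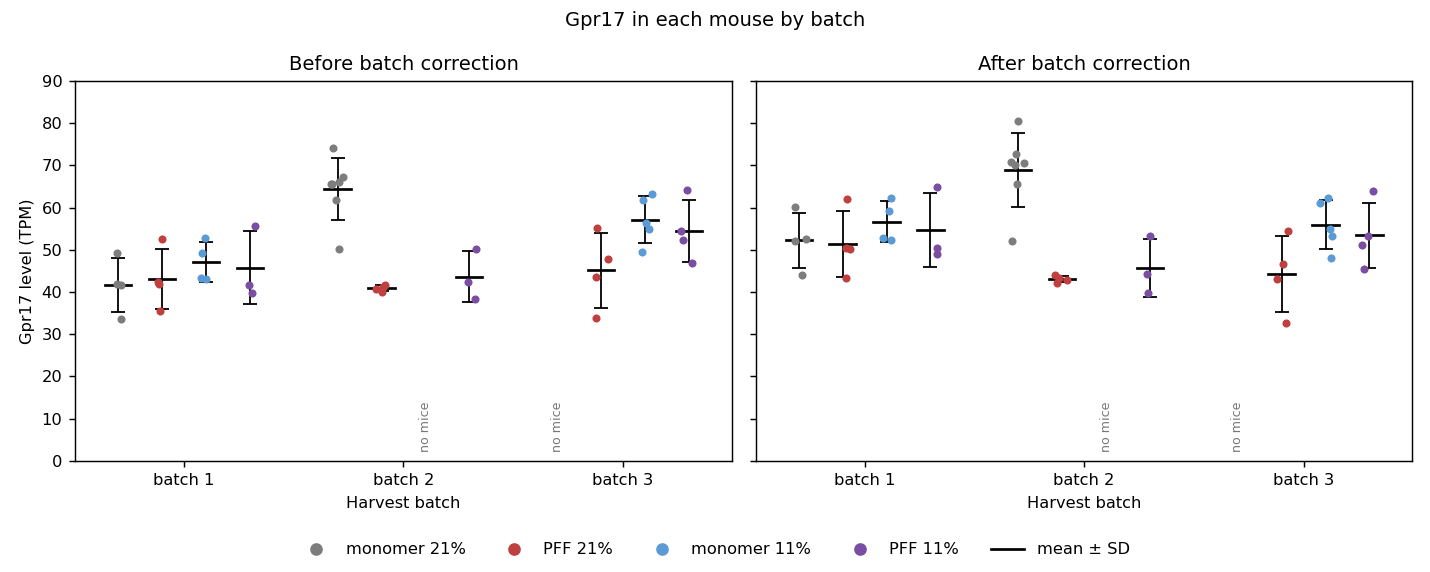
Gpr17 level in TPM in each mouse by harvest batch and group, before and after the authors' batch correction, with group mean ± SD. Before correction the monomer mice at 21% O2 of batch 2 (50.1 to 74.2 TPM) lie above its PFF mice (39.9 to 41.7 TPM), whereas the groups overlap in batch 1. Groups absent from a batch are marked.

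Wider lists of the lineage were read beside the comparison of PFF and monomer mice at 21% O2, in which 3.7% of all genes tested were called. Of 13 other genes of committed precursors and newly formed oligodendrocytes, 0 were called higher and 1 lower, *Rras2*, a small GTPase, which fell by 0.27 (SE 0.0736, edgeR's adjusted p = 0.0192) on the log2 scale. Of 12 other precursor genes, 0 were called in either direction, and their median was -0.02. Among 12 growth signals and receptors of precursors, *Erbb3*, a neuregulin receptor, fell by 0.28 (SE 0.0802, edgeR's adjusted p = 0.0273) and was the 1 gene called. Of 18 tested genes of BMP signalling, the 1 called was *Id1*, a transcriptional target of the pathway, which rose by 0.43 (SE 0.114, edgeR's adjusted p = 0.0142). *Apcdd1*, a Wnt inhibitor, rose by 0.36 (SE 0.112, edgeR's adjusted p = 0.0416) as the 1 called of 17 genes of Notch and Wnt inhibition. *Mcm2*, a replication gene, rose by 0.30 (SE 0.0805, edgeR's adjusted p = 0.0154) as the 1 called of 7 tested proliferation genes. Of 15 mature oligodendrocyte and myelin genes, *Opalin*, a membrane protein of myelin, rose by 0.60 (SE 0.104, edgeR's adjusted p = 0.000259), and 14 were not called. Among markers of other cells, the 1 call was *Slco1a4*, an endothelial transporter, at 0.45 (SE 0.142, edgeR's adjusted p = 0.0416).

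PFF and monomer mice were compared again at 11% O2. None of the 10 genes was called by edgeR, against 0% of all genes tested, and DESeq2 called 0 of the 10. At an unadjusted p under 0.05, 2 of 10 passed, *Pdgfra* and *Enpp6*, against 3.92% of all genes. *Pdgfra* ran from 34.5 through 40.2 to 43.5 TPM in the 9 monomer mice and had a mean of 35.2 ± 3.21 TPM (SD, n = 10) in the PFF mice, with a log2 fold change of -0.13 (SE 0.0520, edgeR's adjusted p = 0.9997). *Enpp6* was 23.8 ± 5.12 TPM (SD, n = 9) with monomer and 20.4 ± 1.75 TPM (SD, n = 10) with PFF, a log2 fold change of -0.21 (SE 0.0990). *Gpr17* had -0.11 (SE 0.0949) and *Bmp4* 0.11 (SE 0.234). Of the 10 fold changes, 9 were below 0, with a median of -0.11 beside -0.000602 over all genes. All 15 mature oligodendrocyte genes also had values below 0, with 0 called and a median of -0.11. So did all 8 endothelial genes (median -0.17) and all 6 pericyte genes (median -0.18). The same held for 7 of 8 leptomeningeal fibroblast genes (median -0.26) and all 4 choroid plexus genes tested (median -0.33). Of 9 neuron genes 7 were above 0, as were 5 of 8 microglia genes. Over all genes tested, 49.6% were above 0.

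Hypoxia in monomer mice gave the most calls. Of the 10 genes, 2 were called, both higher at 11% O2: *Olig1*, the lineage factor, and *Bmp4*, the secreted signal. Of all genes tested, 7.23% were called and 4.68% were called higher. *Olig1* ran from 375 through 438 to 534 TPM in the 11 monomer mice at 21% O2, and from 432 through 585 to 618 TPM in the 9 at 11% O2. Of these 9 mice, 8 lay above the median and 5 above the highest of the mice at 21% O2. The mean was 549 ± 71.2 TPM (SD, n = 9) at 11% and 450.5 ± 49.1 TPM (SD, n = 11) at 21% O2, with a log2 fold change of 0.29 (SE 0.0777, edgeR's adjusted p = 0.0103).

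*Bmp4* ran from 1.56 through 2.63 to 4.82 TPM in monomer mice at 21% O2 and from 3.21 through 4.44 to 7.55 TPM at 11% O2. All 9 mice at 11% O2 lay above the median of the mice at 21% O2, and 3 lay above their highest value. The log2 fold change was 0.73 (SE 0.240, edgeR's adjusted p = 0.0363). The call was lost in 9 of the 42 fits that left out 1 mouse, namely monomer mice at 21% O2 replicates 1, 4, 5, 6, 7 or 9, or monomer mice at 11% O2 replicates 1, 4 or 11. edgeR's adjusted p then lay between 0.0514 and 0.0941, and the fold change between 0.62 and 0.73. *Olig1* was called in all 42 of these fits.

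The precursor surface and matrix genes differed by less. *Pdgfra* was 34.3 ± 2.49 TPM (SD, n = 11) at 21% O2, against 39.0 ± 2.97 TPM (SD, n = 9) at 11% O2. All 9 mice at 11% O2 lay above the median of the mice at 21% O2, and 6 lay above their highest, with a log2 fold change of 0.19 (SE 0.0509, edgeR's adjusted p = 0.0105). *Vcan* ran from 9.46 through 11.4 to 13.4 TPM at 21% O2 and from 11.1 through 12.9 to 16.1 TPM at 11% O2, with a log2 fold change of 0.20 (SE 0.0635, edgeR's adjusted p = 0.0333). Both passed the adjusted p and fell short of the fold change threshold. By the adjusted p alone, 4 of the 10 genes passed, against 13.2% of all genes tested.

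The other genes did not pass. *Enpp6* had a log2 fold change of 0.26 (SE 0.0967, edgeR's adjusted p = 0.0658). It was called when monomer mice at 11% O2 replicate 3 or 5, monomer mice at 21% O2 replicate 3 or PFF mice at 21% O2 replicate 11 was left out, with edgeR's adjusted p between 0.0273 and 0.0491. The log2 fold change was 0.16 (SE 0.0624) for *Bcas1*, 0.17 (SE 0.0707) for *Cspg4*, 0.18 (SE 0.0904) for *Olig2* and 0.17 (SE 0.0905) for *Sox10*. Of the 10 genes, the 1 with a value below 0 was *Gpr17*, at -0.16 (SE 0.0926, edgeR's adjusted p = 0.270). The median over the 10 genes was 0.18 beside -0.00596 over all genes.

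**Figure D3:**
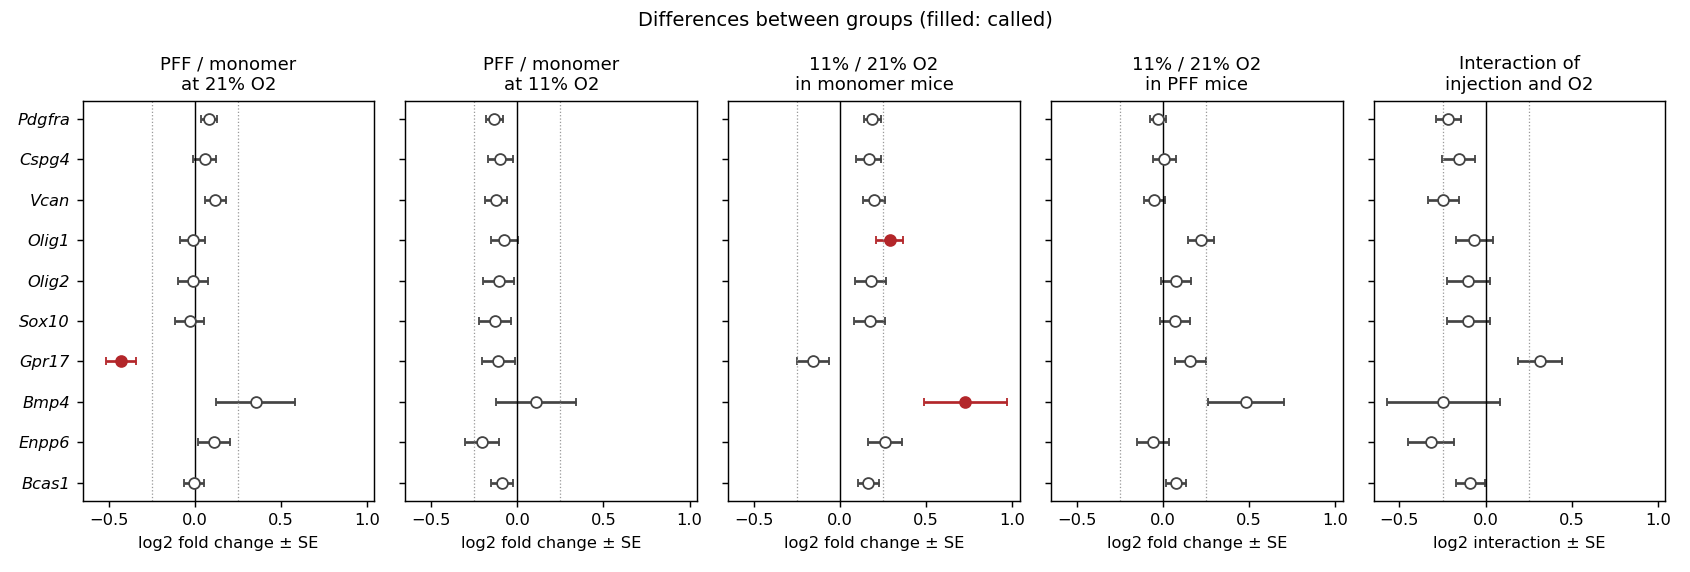
Log2 fold changes ± SE of the 10 genes in the 4 comparisons, and the interaction, with filled points for genes called by edgeR and dotted lines at the 0.25 threshold. Gpr17 is filled for PFF at 21% O2 at -0.43, and Olig1 (0.29) and Bmp4 (0.73) are filled for hypoxia in monomer mice, with no filled point in the other panels.

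Monomer mice at 21% and at 11% O2 met only in batch 1, with 4 mice each. There, before correction, the log2 fold change was 0.37 (SE 0.0998, edgeR's adjusted p = 0.0646) for *Olig1* and 1.01 (SE 0.335, edgeR's adjusted p = 0.117) for *Bmp4*. *Olig1* was 346 ± 45.8 TPM (SD, n = 4) at 21% and 447 ± 37.4 TPM (SD, n = 4) at 11% O2 in that batch. *Gpr17* had a value above 0 there, 0.18 (SE 0.128, edgeR's adjusted p = 0.467). When batch was a term in the fit to uncorrected counts of the 42 mice, 0 of the 10 genes were called. The same fit with noncoding genes included called 853 of 18293 genes. With protein-coding genes alone, *Olig1* had 0.29 (SE 0.0945, edgeR's adjusted p = 0.0524) and *Bmp4* 0.78 (SE 0.268, edgeR's adjusted p = 0.0679).

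Other cell types moved in the same comparison. All 8 endothelial and all 6 pericyte markers were called higher at 11% O2 in monomer mice, with medians of 0.55 and 0.57. The smallest p in each list was that of *Kdr*, a receptor for vascular growth factor, at 1.15 (SE 0.0929, edgeR's adjusted p = 5.50e-12) and of *Abcc9*, a channel subunit of pericytes, at 0.61 (SE 0.0682, edgeR's adjusted p = 2.69e-08). The summed pericyte markers had a median of 247 TPM at 21% O2 and 373 TPM at 11% O2. The 8 markers of leptomeningeal fibroblasts summed to 19.5 through 45.6 to 108 TPM at 21% O2 and 22.8 through 70.2 to 157 TPM at 11% O2, and 0 of them were called. No marker of these lists was at 0 throughout a group. The part of these cells in the values of *Cspg4*, *Pdgfra* and *Bmp4* was not tested.

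The wider lineage lists also held called genes, beside 7.23% of all genes tested. Of 13 other genes of committed precursors and newly formed oligodendrocytes, 3 were called higher and 1 lower. *Prom1*, a membrane protein, rose by 0.57 (SE 0.112, edgeR's adjusted p = 0.000409) and *Nkx2-2*, a transcription factor of maturing precursors, by 0.30 (SE 0.0623, edgeR's adjusted p = 0.00110). *Rras2*, named here after its values were seen, fell by 0.31 (SE 0.0796, edgeR's adjusted p = 0.00674). Of 12 other precursor genes, *Matn4*, a matrix protein, rose by 0.28 (SE 0.0671, edgeR's adjusted p = 0.00441) and 0 fell. Of the 15 mature oligodendrocyte and myelin genes, 4 were called higher, led by *Opalin* at 0.71 (SE 0.111, edgeR's adjusted p = 2.29e-05) and *Mog*, a myelin protein, at 0.32 (SE 0.0624, edgeR's adjusted p = 0.000396).

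Signals that act on precursors formed further lists, read beside the same 7.23% of all genes. Among 12 growth signals and receptors, 2 were called, *Fgfr2*, a fibroblast growth factor receptor, which rose by 0.37 (SE 0.0636, edgeR's adjusted p = 0.000103), and *Erbb2*, the partner of *Erbb3*, by 0.43 (SE 0.131, edgeR's adjusted p = 0.0215). Of 18 tested genes of BMP signalling, 2 were called, *Nog*, a secreted BMP antagonist, which rose by 0.34 (SE 0.118, edgeR's adjusted p = 0.0452), and *Id2*, a target of the pathway, by 0.31 (SE 0.0976, edgeR's adjusted p = 0.0268). Of 17 genes of Notch and Wnt inhibition, 3 were called higher, among them *Jag1*, a Notch ligand, at 0.41 (SE 0.0951, edgeR's adjusted p = 0.00295) and *Notch1*, a receptor, at 0.29 (SE 0.0867, edgeR's adjusted p = 0.0220). Of 7 tested proliferation genes, 0 were called.

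The *Bmp4* promoter is printed because *Bmp4* had the largest fold change of the 10 genes under hypoxia. Of the 10 genes, 6 matched the RefSeq promoter table, namely *Pdgfra*, *Enpp6*, *Cspg4*, *Vcan*, *Bmp4* and *Olig2*. The 250 bases before each start were searched on both strands. The first letters were ACGTG, 1 form of the core bound by hypoxia-inducible factors, whose other form, GCGTG, was not searched. CANNTG, the E-box of basic helix-loop-helix proteins such as the Olig factors, and ACAAAG, letters bound by SOX proteins, were also searched. *Bmp4* was the 1 gene of the 6 with ACGTG, which 16.6% of the 32851 promoters in the table hold. Its match is the palindrome CACGTG, which reads the same on both strands and also counts as an E-box. *Bmp4* had 3 E-boxes in all, and *Pdgfra* and *Vcan* 1 each, while 66.2% of all promoters held at least 1. None of the 6 held ACAAAG, which 16.5% of promoters hold. A match of letters says nothing of whether a factor was bound. The sequence lies on the minus strand at chr14:46390670-46390919 of GRCm38.p6, ends at the base before the start, and has CACGTG in capitals.
Bmp4: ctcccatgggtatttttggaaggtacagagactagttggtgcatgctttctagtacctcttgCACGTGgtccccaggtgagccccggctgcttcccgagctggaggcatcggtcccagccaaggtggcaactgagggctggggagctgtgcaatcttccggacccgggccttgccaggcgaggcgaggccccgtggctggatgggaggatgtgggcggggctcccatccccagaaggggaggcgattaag

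Hypoxia in PFF mice left the 10 genes without a call by edgeR, against 0.58% of all genes tested, and DESeq2 called 0 of the 10. At an unadjusted p under 0.05, 2 of 10 passed, *Olig1* and *Bmp4*, against 10.7% of all genes. *Olig1* ran from 383 through 425 to 586 TPM in the 12 PFF mice at 21% O2 and from 447 through 506 to 613 TPM in the 10 at 11% O2. All 10 mice at 11% O2 lay above the median at 21% O2, and the log2 fold change was 0.22 (SE 0.0741, edgeR's adjusted p = 0.190). *Bmp4* had a log2 fold change of 0.48 (SE 0.223, edgeR's adjusted p = 0.435). That value rested on 1 mouse, PFF at 11% O2 replicate 8, with 13.8 TPM where the next highest of its group had 6.02 TPM, and without it the log2 fold change was 0.18 (SE 0.190, edgeR's adjusted p = 0.766). *Gpr17*, at 46.3 ± 7.34 TPM (SD, n = 12) and 51.5 ± 7.99 TPM (SD, n = 10), had a log2 fold change of 0.16 (SE 0.0888). The median over the 10 genes was 0.07 beside -0.00631 over all genes. In the wider lists, *Smad7*, an inhibitor of BMP and TGF-beta signalling, rose by 0.35 (SE 0.0650, edgeR's adjusted p = 0.00149). Of the markers of other cells, 3 of 8 endothelial and 3 of 6 pericyte genes were called higher, led by *Kdr* at 0.97 (SE 0.0893, edgeR's adjusted p = 4.04e-10) and *Abcc9* at 0.58 (SE 0.0658, edgeR's adjusted p = 8.44e-08).

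The interaction asks whether the PFF difference at 11% O2 departs from that at 21% O2. None of the 10 genes was called by edgeR, against 2.14% of all genes tested, and DESeq2 called 0 of the 10. At an unadjusted p under 0.05, 4 of 10 passed, against 15.4% of all genes. These were *Pdgfra* at -0.22 (SE 0.0704, edgeR's adjusted p = 0.0960), *Vcan* at -0.24 (SE 0.0879, edgeR's adjusted p = 0.135), *Enpp6* at -0.32 (SE 0.134, edgeR's adjusted p = 0.225) and *Gpr17* at 0.32 (SE 0.128, edgeR's adjusted p = 0.199). Of the 10 values, 9 were below 0 and that of *Gpr17* was above 0. Within batch 1, which alone held all 4 groups, *Gpr17* had a value of -0.10 (SE 0.188). The PFF effect on *Gpr17* was thus not shown to differ between 21% and 11% O2. In the wider lists, *Rras2* had an interaction of 0.52 (SE 0.110, edgeR's adjusted p = 0.00628), *Opalin* of -0.71 (SE 0.153, edgeR's adjusted p = 0.00729), *Mog* of -0.33 (SE 0.0865, edgeR's adjusted p = 0.0268) and *Pdgfrb*, a pericyte receptor, of -0.39 (SE 0.101, edgeR's adjusted p = 0.0268).

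The 10 genes were then compared mouse by mouse. Log2 counts per library size were expressed as the deviation from the group mean, and the 45 pairs of genes were correlated over the 42 mice, with 100000 two-sided permutations within groups and adjustment over the pairs. Of the 45 pairs, 42 had a positive Pearson's r, the median r was 0.34, and 22 passed an adjusted p of 0.05. With deviations from the means of group and batch the median was 0.39.

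The lineage factors held the 2 largest r of the 45, and *Sox10* with *Bcas1* the next, at 0.76. For *Olig1* with *Sox10*, r was 0.82 and Spearman's rho 0.81, for *Olig2* with *Sox10* 0.79 and 0.78, and for *Olig1* with *Olig2* 0.76 and 0.72. Each of these had a raw permutation p of 1e-05, the smallest that the permutations can give, adjusted to 5.62e-05 for r and 7.50e-05 for rho. Without the 2 mice farthest from the median of the first gene, r was 0.79, 0.76 and 0.73, and within batches 0.80, 0.76 and 0.76. *Cspg4*, a precursor gene, followed the 3 factors with r between 0.69 and 0.71.

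The precursor surface and matrix genes did not pass as a set. The r between *Pdgfra*, *Cspg4* and *Vcan* was 0.03 to 0.30, with 0 of 3 pairs past the threshold. *Vcan* passed with 1 of the other 9 genes, *Enpp6*, at an r of 0.57 and a rho of 0.53 (adjusted permutation p = 0.000831 and 0.00302), and this r was 0.51 without the 2 farthest mice and 0.57 within batches. *Gpr17* had an r of 0.62 with *Sox10* and 0.61 with *Olig2*, but of 0.14 with *Pdgfra* and 0.17 with *Enpp6*. *Bmp4* had r between -0.09 and 0.22 with the other 9 genes, and 0 of 9 passed by r. By rank, it passed with *Gpr17* (rho = 0.38, adjusted permutation p = 0.0392) and *Cspg4* (rho = 0.36, adjusted permutation p = 0.0496). Within batches the r of these pairs was 0.10 (adjusted permutation p = 0.679) and 0.25 (adjusted permutation p = 0.143).

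**Figure D4:**
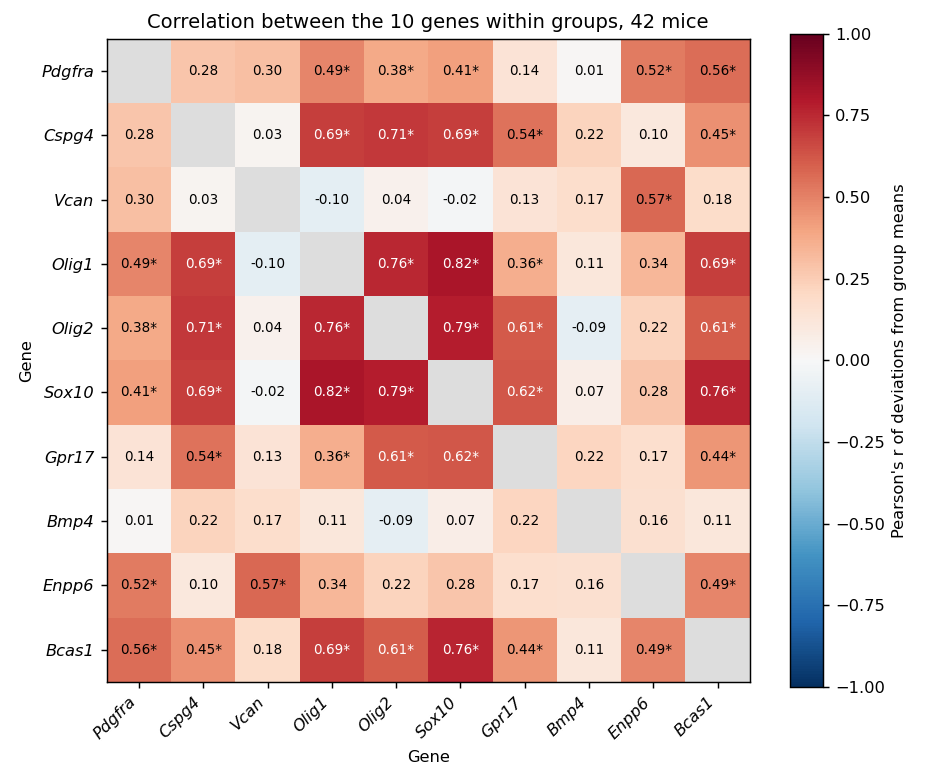
Pearson's r between the 10 genes over 42 mice, from log2 counts per library size as deviations from the group mean, with an asterisk for an adjusted permutation p under 0.05. Olig1, Olig2 and Sox10 form a block between 0.76 and 0.82, whereas Bmp4 has no asterisk.

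The genes were also set beside 4 marker sums, with adjustment over 40 relations. By r, 8 of the 10 genes passed with the summed mature oligodendrocyte and myelin genes, most closely *Bcas1* (r = 0.88, rho = 0.88), *Enpp6* (r = 0.76, rho = 0.66), *Sox10* (r = 0.69, rho = 0.65) and *Pdgfra* (r = 0.65, rho = 0.64). Their adjusted permutation p for r was 0.000133 for the first 3 and 0.000200 for *Pdgfra*. The r within batches was 0.89, 0.76, 0.71 and 0.66, and without the 2 farthest mice 0.86, 0.70, 0.64 and 0.64. *Bmp4* did not pass with that sum (r = 0.13, adjusted permutation p = 0.580). The part of mature oligodendrocytes in the values of *Bcas1* and *Enpp6* was not tested.

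*Bmp4* passed with the pericyte sum (r = 0.36, rho = 0.43, adjusted permutation p = 0.0240 and 0.0264) and with the leptomeningeal fibroblast sum (r = 0.38, rho = 0.44, adjusted permutation p = 0.0157 and 0.0264). Within batches these r were 0.44 and 0.42, and without the 2 farthest mice 0.37 and 0.34. *Enpp6* had a larger r with the pericyte sum, 0.43, and passed by rho (0.44, adjusted permutation p = 0.0264) but not by r (adjusted permutation p = 0.0515). For *Cspg4* the r with the pericyte sum was 0.17 (adjusted permutation p = 0.479), and for *Pdgfra* with the fibroblast sum 0.30 (adjusted permutation p = 0.158).

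Among the 14829 other genes tested, those most like 3 of the genes were picked by r, so they carry no p. *Sox10* was most like *Myrf*, the factor that switches on myelin genes (r = 0.92), *Fa2h*, an enzyme of myelin lipids (r = 0.91), and *Gna12* (r = 0.90). *Enpp6* was most like *Fads2b* (r = 0.88), *Pmp22*, a myelin protein (r = 0.87), and *Cmtm5* (r = 0.87). *Pdgfra* was most like *Ermp1* (r = 0.79), *Kif5a*, a neuronal kinesin (r = 0.75), and *Ldlrad4* (r = 0.74). All values are over the same 42 libraries, which share depth and dissection.

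The 6 mice outside the corrected table, removed by the authors as outliers in expression, were read in the values before correction. Mice picked that way can differ from the 42 in many genes, and the share of genes that did was not counted. *Bmp4* was 39.1 and 35.3 TPM in the PFF mice at 11% O2 replicates 2 and 5, 20.8 TPM in the monomer mouse at 21% O2 replicate 10, and 14.2, 7.33 and 8.74 TPM in the monomer mice at 11% O2 replicates 8, 9 and 12. In the 42 mice *Bmp4* ran from 0.834 through 3.54 to 12.8 TPM, which overlapped the range of the 6. The 8 leptomeningeal fibroblast markers summed to 76.9 to 835 TPM in the 6 mice and 23.5 to 143 TPM in the 42, and their part in *Bmp4* was not tested. PFF at 11% O2 replicate 2, with a *Pdgfra* of 16.9 TPM and a *Gpr17* of 13.8 TPM, had only 3134594 counts. When all 48 mice were fitted with a batch term, *Bmp4* under hypoxia had 0.90 (SE 0.564, edgeR's adjusted p = 0.338) in monomer and 1.39 (SE 0.447, edgeR's adjusted p = 0.114) in PFF mice. *Olig1* was the 1 gene of the 10 called in monomer mice in that fit, at 0.33 (SE 0.0921, edgeR's adjusted p = 0.0206). *Gpr17* was the 1 called for PFF at 21% O2, at -0.37 (SE 0.109, edgeR's adjusted p = 0.0334). With noncoding genes included, that fit called 962 of 18158 genes for hypoxia in monomer mice and 593 for PFF at 21% O2.

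**Figure D5:**
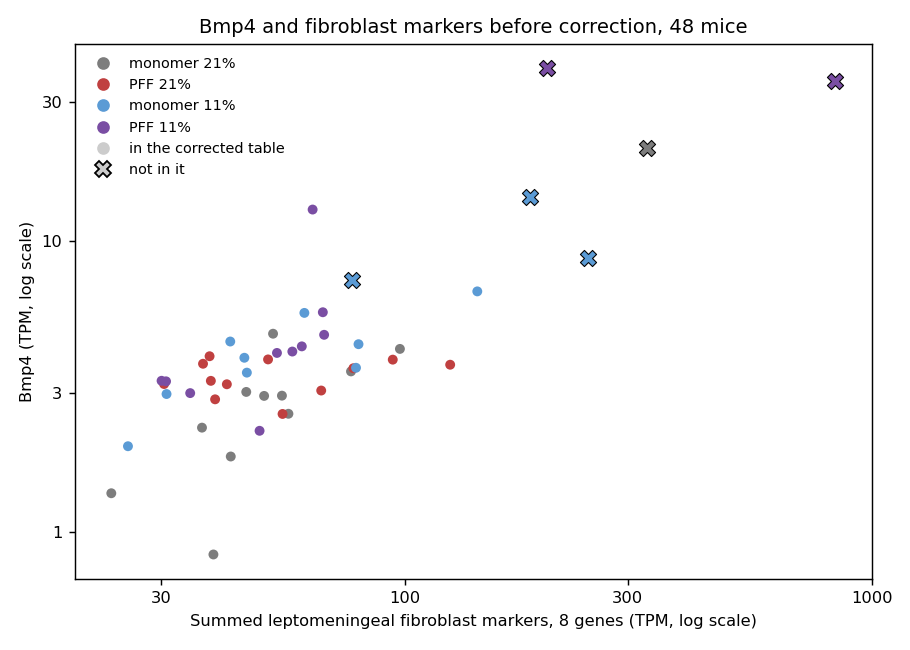
Bmp4 TPM against the summed TPM of 8 leptomeningeal fibroblast markers in the 48 mice before correction, both on log axes, coloured by group, with crosses for the 6 mice outside the corrected table. The crosses have 7.33 to 39.1 TPM of Bmp4, and the 42 other mice have 0.834 to 12.8 TPM.

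A noncoding RNA of newly formed oligodendrocytes, 9630013A20Rik (ENSMUSG00000115529.1, chromosome 14 from 84458639 to 84476424), is absent from the protein-coding table and was tested on uncorrected counts with a batch term. Its TPM ran from 2.17 through 3.58 to 6.90 in monomer and from 3.20 through 5.04 to 10.1 in PFF mice at 21% O2, and from 4.01 through 6.51 to 9.18 in monomer and from 3.47 through 7.03 to 9.03 in PFF mice at 11% O2. The log2 fold change was 0.61 (SE 0.217, edgeR's adjusted p = 0.0842) for hypoxia in monomer mice and 0.48 (SE 0.187, edgeR's adjusted p = 0.105) for PFF at 21% O2. It was called by edgeR in 0 of 5 comparisons, and these 2 passed an unadjusted p of 0.05.

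Reads were counted without strand, so strand could not assign a read that lies in bases shared by genes on opposite strands. In GENCODE vM21 on GRCm38, exons of *Pdgfra* share 456 bases with Gm42802, those of *Bcas1* 440 with Bcas1os1, those of *Olig1* 157 with Gm15966 and those of *Bmp4* 89 with Gm15217, and those of *Gpr17* overlap *Lims2*, all on the opposite strand. *Pdgfra* also shares 30 bases with Mir7025 on its own strand.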

How the data were processed

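RNA of the substantia nigra of 48 mice was profiled as poly(A) libraries that do not keep strand. The authors aligned reads to mm10 with STAR 2.7.5a, removed duplicates with Picard 2.21.9 and counted reads per gene of GENCODE vM24 with featureCounts 2.0.1, taking the primary alignment of reads with several. They deposited whole-number counts and TPM of 55385 genes in 48 mice. They then left out 6 mice as outliers in a principal components analysis of expression. ComBat-seq was applied with injection and O2 as covariates, and batch-corrected counts and TPM of 19601 protein-coding genes in 42 mice were deposited.

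Batch-corrected counts entered the quasi-likelihood test of edgeR 4.0.16 (R 4.3.3), with TMM scaling, filterByExpr by group, 4 groups in 1 fit and no batch term. SE is the absolute log2 fold change over the square root of F. Fold changes within batches use counts before correction. Levels are deposited TPM. Correlations used log2 CPM with a prior count of 2, and log2(TPM + 1) for marker sums. The scripts were tested on simulated data. The alternatives were DESeq2 1.42.0, scaling by DESeq2 size factors, testing without a filter, and the adjusted p alone. Uncorrected counts were fitted with or without batch in the 42 mice, and with batch in the 48. Further alternatives were each batch alone, a replicate block, the compared groups alone, and each mouse left out. limma 3.58.1 was run on log2(TPM + 1), with or without a mean TPM of at least 1, and on log2(TPM + 0.1). The test between batches was chosen after seeing the data. The 10 genes and all lists were chosen with earlier results of these data known. Beside the 10 genes, the text names up to 2 called genes with the smallest p per list and comparison, and the 3 genes most like *Pdgfra*, *Sox10* and *Enpp6*. Positions come from GENCODE vM21 on GRCm38, whose identifiers matched for all 10 genes. The p-values measure the spread between mice. Those on batch-corrected counts take the corrected values as given, so the uncertainty of the batch correction is not in them.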

Additional observations from a re-analysis of the deposited data

Results flagged for a closer look

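The PFF effect on *Gpr17* at 21% O2 differed between harvest batches, by -0.71 (SE 0.148, edgeR's adjusted p = 0.0345) on the log2 scale for batch 2 against batch 1. In batch 2 all 4 PFF mice lay below all 7 monomer mice, and in batch 1 the groups overlapped.

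*Bmp4* was high in mice outside the corrected table, which the authors had removed as outliers in expression. Among the analysed monomer mice at 21% O2 its highest value before correction was 4.79 TPM, and more than 2 times that level was reached by PFF at 11% O2 replicate 2 (39.1 TPM) and replicate 5 (35.3 TPM), monomer at 21% O2 replicate 10 (20.8 TPM) and monomer at 11% O2 replicate 8 (14.2 TPM).

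Groups of 9 and 10 mice were searched for a mouse far from the others by Dixon's test, which chance passes in about 1 of 20 groups, and 2 of 20 passed. *Bmp4* in PFF at 11% O2 replicate 8 was 13.8 TPM, where the next mouse had 6.02 TPM. *Enpp6* in PFF at 11% O2 replicate 7 was 16.4 TPM, where the next mouse had 19.2 TPM.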

How the results depend on the processing

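Of 680 log2 fold changes of the 10 genes under 15 alternatives, 670 kept their side of the threshold, 6 lost a call, 3 gained one and 1 called value changed sign, and 39 values that were not called had the other sign. *Gpr17* for PFF at 21% O2 changed sign in batch 1 alone (0.072), where 0 genes were called, and was called under the other 13 alternatives, with values of -0.64 to -0.36. For hypoxia in monomer mice, the count of 2 genes became 4 by the adjusted p alone. It became 0 with batch as a term in 42 mice and 1 with 48 mice. In batch 1 alone, with 4 monomer mice at each O2 level, it was 0. *Bmp4* was not called in the last 3 of these nor on uncorrected counts without a batch term (0.58 (SE 0.243, edgeR's adjusted p = 0.0986)), where *Enpp6* was called. The cause was not tested. Over all genes, 13.2% passed by the adjusted p alone for hypoxia in monomer mice. With noncoding genes included, the fits with a batch term called 853 of 18293 genes in 42 mice and 962 of 18158 in 48 mice. In the other comparisons 0 of the 10 genes were called under each alternative run.

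With 1 mouse left out, the count was 1 to 1 for PFF at 21% O2, 1 to 3 for hypoxia in monomer mice and 0 to 0 in the other comparisons.

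Mice of the same replicate number in different groups deviated together with an r of -0.40 to 0.56 over 54 pairs, 21 of them over 0.1. The r differed between pairs of groups, from 7 of 9 over 0.1 for monomer mice at 21% with PFF mice at 11% O2 to 0 of 8 for the monomer mice at both O2 levels. A mouse correlated best with its own number in 13 of 108 matches, and the count expected by chance was not computed. Replicate numbers also follow the harvest batches, whose part in these r was not tested. The methods state that animals were matched, but the sources used here do not tie the numbers to those matches, so the numbers were not taken as pairs. With the replicate number as a block, 1 gene was called for PFF at 21% O2, 2 for hypoxia in monomer mice and 0 in the other comparisons, and *Gpr17* had -0.42 (SE 0.0906, edgeR's adjusted p = 0.00533). *Bmp4* had the fewest counts of the 10 genes, 7 to 112 per mouse before correction.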
